A study of Gallus gallus with 28 samples.

Results

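The response described here is that of the anterior preoptic hypothalamus to 6 h of heat in chicks whose parents had not been heat conditioned as embryos (the non-conditioned lineage). It rests on 6 of the 28 samples of the series, chosen by their labels: 3 RNA libraries from chicks moved from a room at 30 °C to one at 36 °C and taken 6 h later, and 3 from unchallenged chicks (t0). All chicks were 10 days old after hatching, had not been conditioned themselves, and gave whole tissue lysates of the dissected region. The labels of the RNA libraries give no strain or sex, and the methylation samples of the series are labelled Cobb, a broiler strain. Titles of the RNA libraries speak of conditioned or non-conditioned parents, whereas the labels of the methylation samples speak of paternal conditioning. The other groups drawn on below are 3 heated and 3 t0 libraries from offspring of conditioned parents and 3 libraries of each lineage taken 6 h after lipopolysaccharide (LPS, a bacterial cell wall component) was injected into the third ventricle of the brain. No group is labelled as kept for 6 h at 30 °C without a challenge, so heat cannot be told apart from moving, handling and the time of day. Nothing in the labels says whether the libraries of a group came from separate chicks, so that p-values measure the spread between these libraries.

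The preoptic area at the front of the hypothalamus holds the neurons that sense brain temperature and take in signals from the skin. Together with other brain regions it drives panting, vasodilation in bare skin and lowered heat production in a hot bird. At the level of single cells, heat unfolds proteins, which releases heat shock transcription factors to raise the transcription of chaperones, proteins that refold or hold other proteins. Neuronal activity, stress hormones and the daily clock change transcription in this tissue as well. Which of these a gene below belongs to cannot be said, because the deposited table repeats the Ensembl identifier in place of a name for all 11207 genes and 0 of the 25635 genes in the reference table given for this work carry an Ensembl identifier. Genes are therefore given by identifier. For the same reason, neither the dissected region nor the cell types in it could be checked against markers. In a lysate of a whole tissue, fewer cells of a type and less RNA per cell cannot be told apart.

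Depth moved with the groups. The heated libraries held 1145375, 2725127 and 1461890 counts, against 4270204, 4589179 and 3379626 counts in the t0 libraries, so that t0 was sequenced 2.30-fold more deeply on average and the groups did not overlap. Between 10208 and 10703 genes had a count in the heated libraries, against 10825 to 10967 at t0. The 10 most abundant genes took 14.6% ± 1.80 of the counts under heat and 12.0% ± 2.25 at t0 (SD, n = 3 each, exact permutation test, 2-sided, p = 0.3). After all 6 libraries were thinned to 1145375 counts, the genes detected overlapped, at 10003 to 10239 under heat and 10057 to 10270 at t0. Values on the thinned counts are given below for the calls, the unadjusted p-values, the overlap of groups and the range within groups. For the other results the part of depth was not tested.

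After 6 h of heat, 4 of the 7921 genes tested were higher than at t0 and 0 were lower (edgeR quasi-likelihood test, Benjamini-Hochberg adjusted p under 0.05), which is 0.0505% of the genes tested. At an unadjusted p under 0.05 stood 318 higher genes (4.01%) and 213 lower ones (2.69%). Other tools called more in each direction: DESeq2 made 23 calls upwards and 4 downwards, and limma's voom made 12 and 1 (0.164% of genes tested). Without t0 library 2, edgeR also called 1 gene as lower. The 4 genes called by edgeR were among those of both other tools. They stood between 58.9 and 407 CPM at t0 (counts scaled to a common library size with TMM factors), with 66.5% to 94.9% of the genes tested below them at t0. Together they took 0.192% ± 0.0312 of all counts under heat and 0.0762% ± 0.0101 at t0 (SD, n = 3 each). The exact permutation test gave p = 0.1 for this share, which is the smallest p that 3 libraries against 3 allow, and the 4 genes had been called in these libraries.

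ENSGALG00000023818.4 had the largest change of the 4. It stood at 461, 258 and 565 CPM in heated libraries 1 to 3, against 68.1, 82.5 and 87.3 CPM in t0 libraries 1 to 3. The lowest heated library was thus far above the highest t0 library, and the spread among heated libraries was wider than that among t0 libraries, with SDs of 156 and 10.0 CPM. The log2 fold change was 2.43 ± 0.31 (SE), with a 95% interval from 1.77 to 3.08 and an edgeR adjusted p of 0.00066.

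ENSGALG00000011715.5 ranked first by p. It stood at 694, 424 and 725 CPM under heat and at 141, 194 and 200 CPM at t0. Heated library 2 was again the lowest of its group and still above every t0 library. The log2 fold change was 1.78 ± 0.22 (SE, 95% interval 1.32 to 2.24, edgeR adjusted p = 0.00066).

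ENSGALG00000009433.6 had the lowest level of the called genes, at 178, 107 and 168 CPM under heat and 66.9, 50.7 and 59.0 CPM at t0. Heated library 2 was the lowest of the heated libraries here too, and the groups did not overlap. The log2 fold change was 1.35 ± 0.21 (SE, 95% interval 0.91 to 1.78, edgeR adjusted p = 0.00603). This call was the least firm of the 4: the adjusted p was 0.0927 in a fit to the 6 libraries alone, 0.0553 without heated library 1, 0.0754 without t0 library 2 and 0.051 without t0 library 3, with log2 fold changes of 1.22 to 1.35 in these fits.

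ENSGALG00000033789.2 was the most abundant of the called genes and had the smallest and most even change. Its heated libraries held 762, 827 and 809 CPM, against 364, 418 and 438 CPM at t0. In this gene heated library 2 was the highest of its group. The log2 fold change was 0.98 ± 0.12 (SE, 95% interval 0.72 to 1.23, edgeR adjusted p = 0.00066).

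On counts thinned to 1 depth the same 4 genes were called and no other. Their log2 fold changes were then 2.40, 1.77, 1.48 and 0.95 in the order given above.

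Among genes that were lower under heat none passed in edgeR, where the smallest adjusted p in that direction was 0.166, at rank 14 of the whole list. By the rule for a direction without calls, the 2 genes with the smallest p among those with no overlap and a mean of at least 10 CPM are given as values. ENSGALG00000006198.6 stood at 67.9, 61.3 and 73.0 CPM under heat and at 114, 152 and 126 CPM at t0, a log2 fold change of -0.96 ± 0.22 (SE, edgeR adjusted p = 0.166). ENSGALG00000004465.6 stood at 37.6, 39.1 and 31.9 CPM under heat and at 66.4, 59.0 and 61.3 CPM at t0, a log2 fold change of -0.77 ± 0.18 (SE, edgeR adjusted p = 0.166). In both, every heated library was below every t0 library. DESeq2 gave these genes adjusted p-values of 0.0202 and 0.0388, and voom 0.048 and 0.109.

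**Figure D1:**
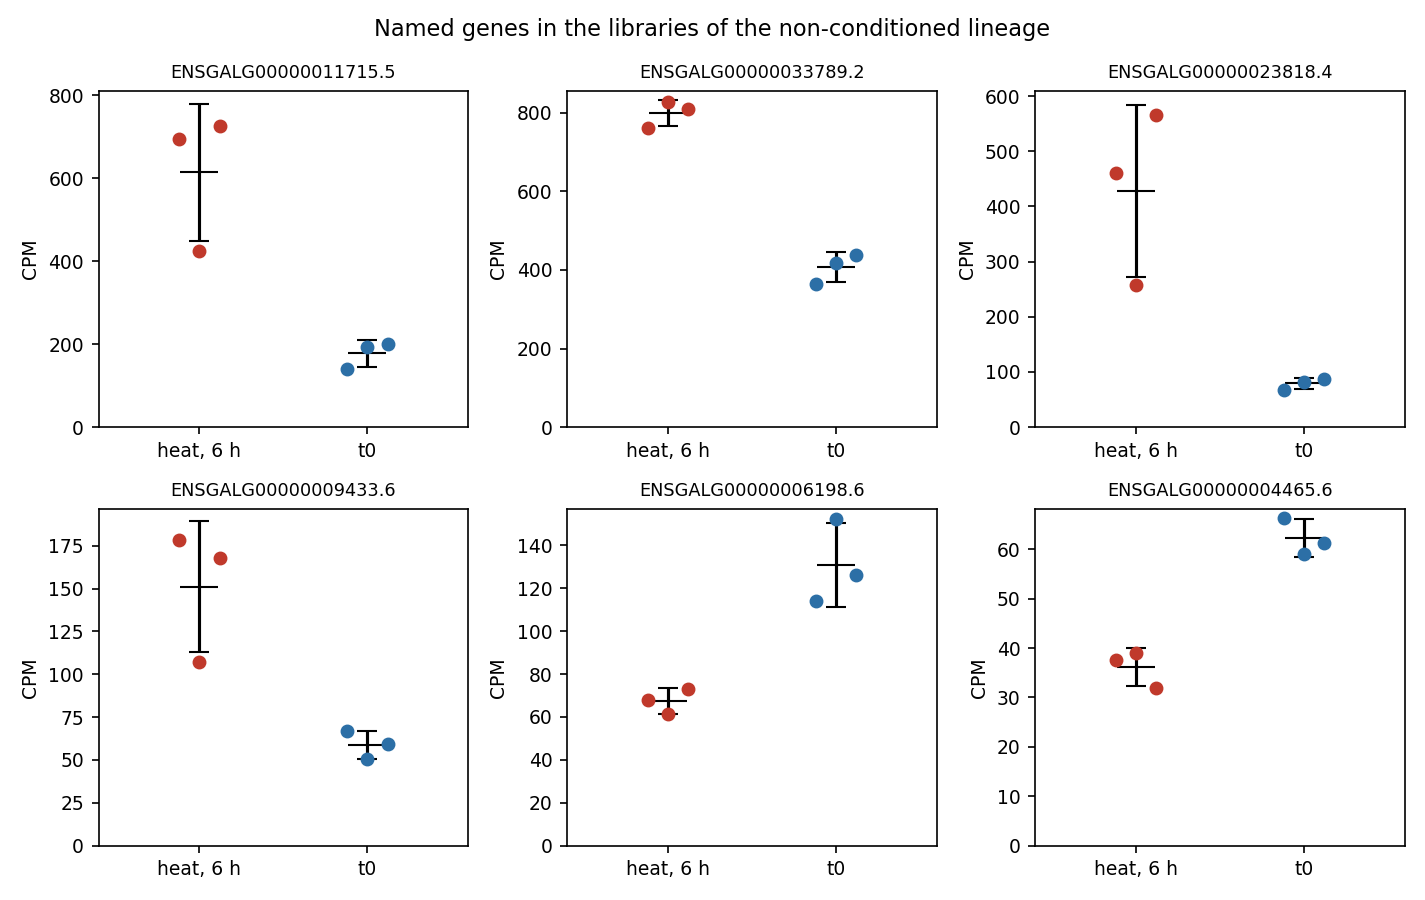
Level of each named gene in CPM (vertical axes, each from 0) in the 3 heated (red, left) and 3 t0 libraries (blue, right) of the non-conditioned lineage, in the order library 1, 2, 3 within a group, with the mean and SD in black. In each of the 6 genes the heated and t0 libraries do not overlap, as in 14% of all genes tested. The same libraries chose these genes, the 2 lower ones by a rule that asked for no overlap. ENSGALG00000006198.6 and ENSGALG00000004465.6 did not pass the edgeR test.

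The libraries did not separate by heat along the main axis of variation. On the first principal component of the 6 libraries (31.7% of the variance), heated libraries 1 and 3 lay at opposite ends, at 32.4 and -34.6, and heated library 2 lay at 5.40, against t0 libraries between -3.67 and 3.14. The second component (26.4%) placed heated libraries 1, 2 and 3 at 24.9, -4.02 and 24.2, against -19.1 to -12.4 for the t0 libraries. Heated library 2, nearest to t0 on this component, was also the heated library with the most counts. Whether depth has a part in this order was not tested.

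The heated libraries differed more among themselves than the t0 libraries did. Of 6086 genes with a mean of at least 10 CPM, 73 had a range of over 4-fold within the heated group and 33 within t0. On thinned counts these numbers were 80 and 53 of 6103 genes. The median range on the log2 scale was 0.46 under heat and 0.33 at t0 as deposited, and 0.48 and 0.42 on thinned counts.

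**Figure D2:**
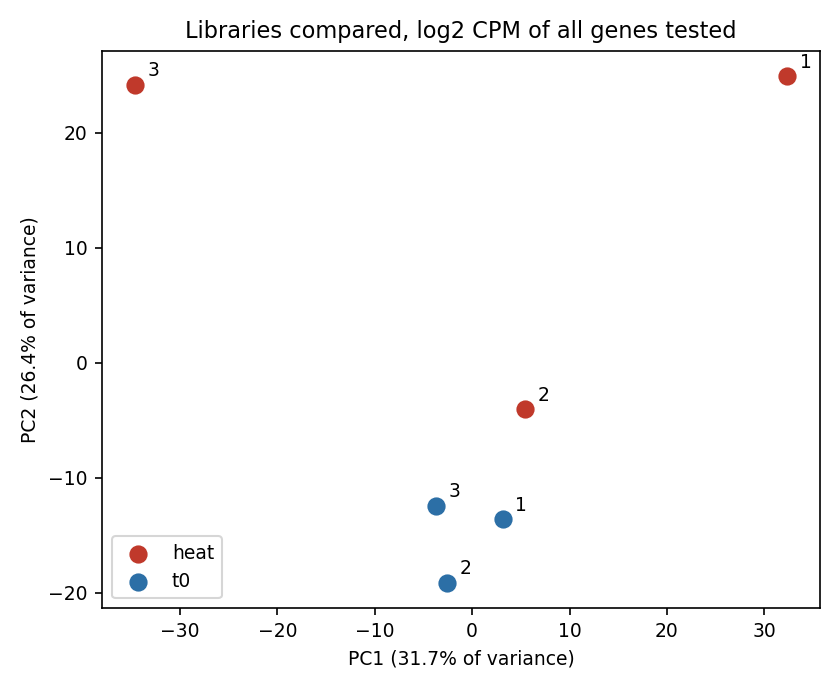
Scores of the 6 libraries on the first (horizontal) and second (vertical) principal component of log2 CPM over all 7921 genes tested, with heated libraries in red, t0 libraries in blue and library numbers beside the points. Heated libraries 1 and 3 lie far apart on the first component at 32.4 and -34.6, while the 3 t0 libraries lie close together.

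Across all genes the fitted changes were mostly small. The quartiles of the log2 fold change were -0.18 and 0.19, around a median of 0.01 with 51.1% of genes above 0, a centre that the scaling to a common library size places near 0. The 5th and 95th percentiles were -0.56 and 0.67. At an unadjusted p under 0.05 stood 531 genes, 6.7% of those tested, where a uniform spread of p-values would put 396. The split of these genes was 318 higher and 213 lower. On thinned counts it was 291 higher and 197 lower, of 7144 genes tested.

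Genes higher under heat were in excess at the smallest p-values. In bins of 0.05 of the unadjusted edgeR p, the first bin held 318 higher genes and the next 267, against 150 to 216 in each later bin. Lower genes numbered 213 and 234 in those first bins and 162 to 219 in the later ones.

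**Figure D3:**
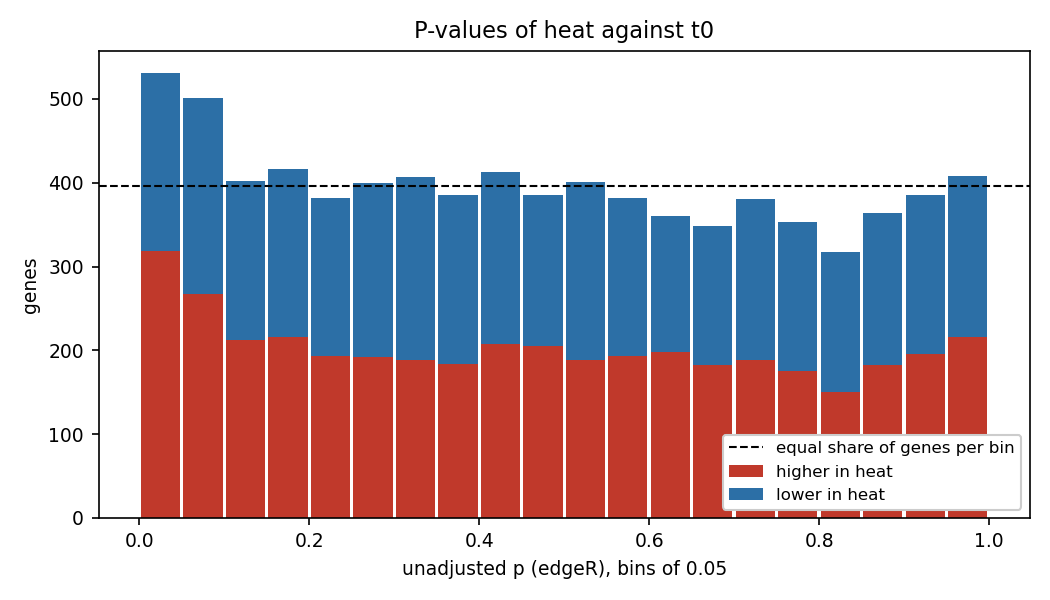
Number of genes (vertical axis) in each bin of 0.05 of the unadjusted edgeR p-value (horizontal axis), split into genes higher under heat (red) and lower under heat (blue). The dashed line is the number per bin if all 7921 genes were spread evenly, 396. The first bin holds 531 genes, of which 318 were higher.

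Counting libraries instead of using the model gave another balance. The heated and t0 libraries did not overlap in 1112 genes, 14% of those tested, with 510 (6.44%) higher under heat and 602 (7.6%) lower. If the 6 libraries were interchangeable, the 20 arrangements of 3 against 3 would put a share of 0.1 of genes here, both directions together. On thinned counts, where fewer genes (7144) were tested, 465 were higher without overlap and 482 lower. The tertile of genes with the highest mean levels, from 59.3 CPM upwards, held 222 higher without overlap and 219 lower. In the middle tertile these numbers were 138 and 196, and in the lowest tertile, up to 15.2 CPM, 150 and 187.

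The upper end of the ranked list was one-sided. The first 10 genes by p were all higher under heat. The 6 that follow the called genes, at ranks 5 to 10, had log2 fold changes of 0.59 to 2.64 and edgeR adjusted p-values of 0.0652 to 0.0909. Their t0 levels ran from 3.96 to 3878 CPM. In each of these 6 genes all heated libraries were above all t0 libraries, and DESeq2 called all 6 (adjusted p 0.000178 to 0.00237) and voom 5. Over all genes tested, 6.44% were higher without overlap, DESeq2 called 0.421% and voom 0.164%. The same libraries had ranked these 6 genes. Further down, the first 20 genes held 16 higher and 4 lower, the first 100 held 63 and 37, and the first 500 held 303 and 197.

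The 27 genes that DESeq2 called, 0.421% of the 6412 to which it gave an adjusted p, lay mostly at the top of the same ranking. In the edgeR order, 19 were among the first 20 and 26 among the first 50. In 24 of them the groups did not overlap, as in 14% of all genes tested, and the same libraries had chosen them. The other 3 are named here after their values were seen. ENSGALG00000032940.2 stood at 3183, 14.7 and 441 CPM under heat and at 15.8, 4.16 and 3.95 CPM at t0. ENSGALG00000035928.2 stood at 167, 1.13 and 13.5 CPM under heat and at 1.16, 0 and 0.565 CPM at t0. In both genes heated library 1 was by far the highest and heated library 2 lay within the range of the t0 libraries (edgeR adjusted p = 0.298 and 0.277). ENSGALG00000041889.2 had 0 counts in every heated library and in t0 libraries 1 and 3, against 6288 counts in t0 library 2, so that its call as lower (DESeq2 adjusted p = 2.35e-06, edgeR adjusted p = 0.551) rested on 1 library.

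The largest fitted changes were of this kind. Of the 29 genes with a fitted change of over 4-fold upwards, 1 was called by edgeR (ENSGALG00000023818.4), and in 21 the heated libraries overlapped those at t0. In 17 of the 29 a single heated library stood at 16.9 to 3183 CPM and at least 4-fold above the next heated library. That library was heated library 2 in 9 genes, heated library 1 in 7 and heated library 3 in 1. The smallest edgeR adjusted p among these 17 was 0.277. Of the 10 genes with a fitted change of over 4-fold downwards none was called by edgeR and 3 showed no overlap. Over all genes tested the groups did not overlap in 14% and 0.0505% were called, and the size of the change that chose these genes is part of the same comparison.

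Most changes of over 2-fold were in genes of low level. There were 150 upwards and 89 downwards, with median t0 levels of 3.29 and 5.86 CPM against 29.6 CPM for all genes tested. At a mean of at least 10 CPM there were 53 upwards and 12 downwards, including 3 of the 4 called genes.

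**Figure D4:**
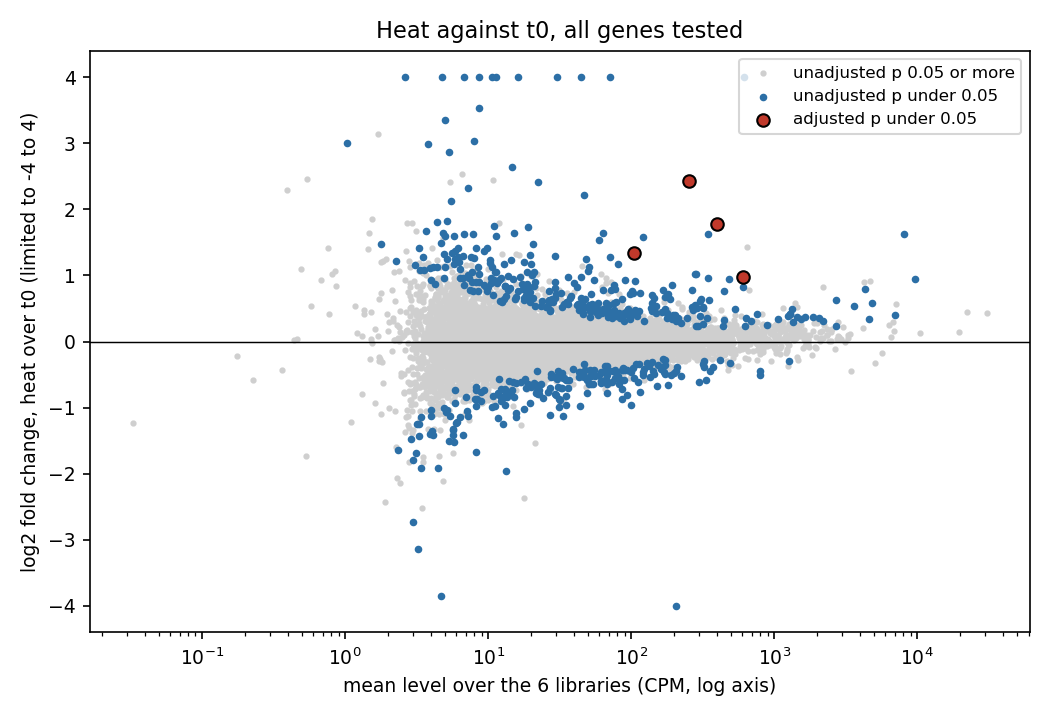
Log2 fold change, heat over t0 (vertical axis, values beyond -4 and 4 drawn at the limits), against the mean level over the 6 libraries (horizontal log axis, CPM) for the 7921 genes tested. The 4 called genes (red) lie above 58.9 CPM with log2 fold changes of 0.98 to 2.43. Larger fitted changes lie mostly among genes of low level or genes that differ between heated libraries, and were not called.

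The precision of the comparison depended on the level of the gene. The median standard error of the log2 fold change was 0.17 in the highest tertile of genes by level, 0.25 in the middle tertile and 0.44 in the lowest. For 5312 genes, 67.1% of those tested, the 95% interval lay wholly inside a 2-fold change in either direction. This share was 94.6% in the highest tertile, 81.3% in the middle tertile and 25.3% in the lowest. For 2445 genes (30.9%) the interval lay inside a 1.5-fold change. These intervals are for each gene alone and are not adjusted for the number of genes.

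Whether the ranking carries over to chicks of conditioned parents was read in their heated and t0 libraries. These had entered the ranking through the low-count filter, the scaling factors and the shared estimate of spread. Their levels were not part of the fold changes that were ranked. Those heated libraries held 3199597, 1214734 and 2241298 counts, against 1422688, 1168108 and 828424 in those t0 libraries. The deepest was thus a heated library, whereas t0 was the deeper group in the non-conditioned lineage. The part of depth in the values below, and in the test of the difference between lineages, was not tested. The 100 highest-ranked genes upwards had a median log2 fold change of 0.89 in the non-conditioned lineage, by which they were chosen. In the conditioned lineage their median was -0.12, and 38 of 100 were above 0, against 51.9% of all genes tested. The 100 highest-ranked genes downwards had a median of -0.74 where they were chosen and of 0.11 in the conditioned lineage, with 33 of 100 below 0. These values turned on the t0 libraries numbered 2 and 3 in that lineage, whose omission was an alternative chosen after seeing the data. With both omitted, only t0 library 1 of that lineage remained, so that the values that follow rest on 1 t0 library. The upward genes then had a median of 0.07, with 64 of 100 above 0 against 51.1% of all genes. The downward genes had a median of 0.05, with 47 of 100 below 0.

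The test of the difference between the lineages' responses called 0 genes in edgeR, where the smallest adjusted p was 0.0657 and 1096 genes (13.8%) had an unadjusted p under 0.05. The count was 113 in DESeq2. In edgeR it was 243 when t0 library 1 of conditioned parentage was omitted, and 2 when heated library 2 of non-conditioned parentage was. It was 0 when any other single library was omitted, with smallest adjusted p-values of 0.0691 to 0.239 in edgeR. Of these, the values were 0.239 without t0 library 2 and 0.163 without t0 library 3 of conditioned parentage. The called genes had been chosen for a high response in the non-conditioned lineage, which favours a positive difference: 99 of the 100 highest-ranked upward genes had one. For ENSGALG00000023818.4 the response was larger by 2.47 ± 0.44 (SE, log2, non-conditioned minus conditioned) and for ENSGALG00000011715.5 by 1.80 ± 0.31, each with an edgeR adjusted p of 0.0657. For ENSGALG00000009433.6 the difference was 1.19 ± 0.31 (edgeR adjusted p = 0.131) and for ENSGALG00000033789.2 it was 0.54 ± 0.18 (edgeR adjusted p = 0.208). The 95% interval of the heat response in the conditioned lineage ran from -0.71 to 0.63 for ENSGALG00000023818.4 and from 0.18 to 0.70 for ENSGALG00000033789.2, whose edgeR adjusted p there was 0.263.

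**Figure D5:**
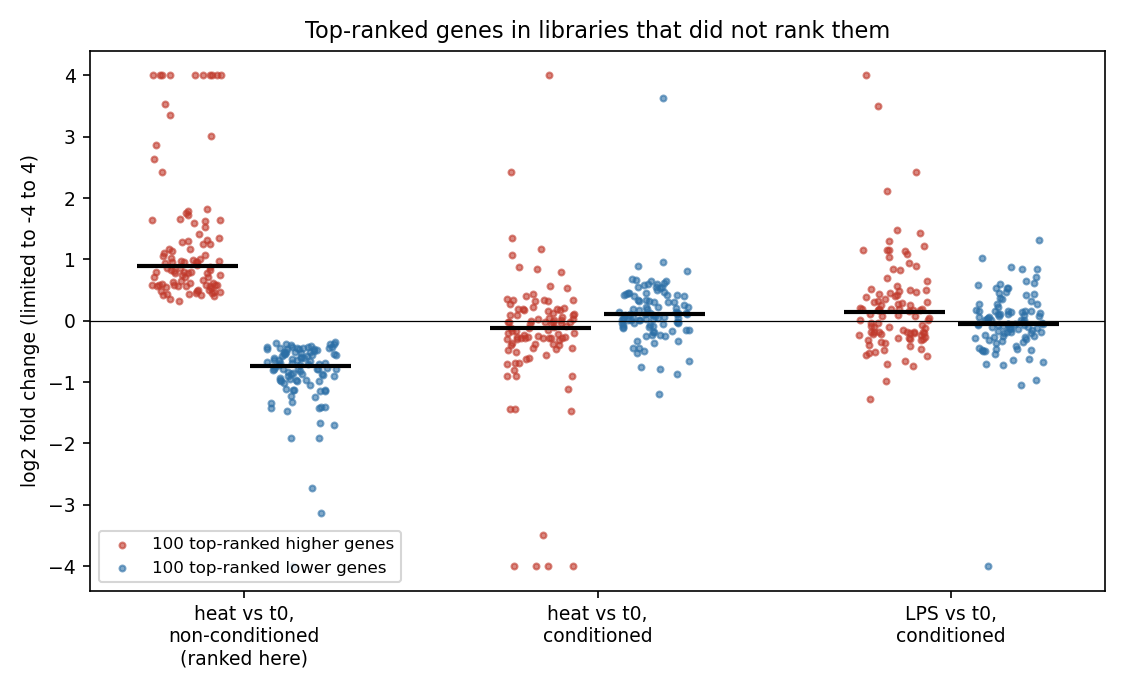
Log2 fold change (vertical axis, values beyond -4 and 4 drawn at the limits) of the 100 highest-ranked genes upwards (red) and downwards (blue), in the comparison that ranked them (left pair) and in 2 comparisons of the conditioned lineage that share no library with it. Points are genes and black bars are medians. The medians of 0.89 and -0.74 on the left stand against -0.12 and 0.11 for heat and 0.14 and -0.05 for LPS in the conditioned lineage.

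Heat and LPS were compared directly in the non-conditioned lineage, without the t0 libraries. Heat and LPS libraries differed in 139 genes (edgeR, 1.75% of those tested), of which 16 (0.202%) were higher under heat and 123 (1.55%) lower. None of the 4 genes called against t0 was among them. Their differences, heat minus LPS on the log2 scale, ran from 0.12 to 0.36, with edgeR adjusted p-values of 0.555 to 0.931. The 95% intervals of these differences were -0.43 to 0.81 for ENSGALG00000023818.4, -0.09 to 0.80 for ENSGALG00000011715.5, -0.30 to 0.55 for ENSGALG00000009433.6 and -0.01 to 0.50 for ENSGALG00000033789.2. The levels reached under heat and LPS in these genes were not separated by 3 libraries each, and differences up to those bounds are not excluded. Of the 16 genes higher under heat than under LPS, 6 were above t0 under heat at an unadjusted edgeR p under 0.05. Over all genes tested this share was 4.01%. The median change of the 16 from t0 under heat was 0.24. The same heated libraries had chosen the 16, which favours a rise from t0. Against the same t0 libraries, LPS called 10 of the 16 as lower and 107 of the 123 as higher. Over all genes tested, LPS against t0 called 2.55%, with 0.341% called as lower. The LPS libraries had also chosen both sets, which favours calls in these directions. In heat against LPS the number of genes called was 87 without heated library 1 and 81 without LPS library 2.

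The same 4 genes stood at 311 to 488 CPM (ENSGALG00000023818.4), 414 to 533 CPM (ENSGALG00000011715.5), 124 to 156 CPM (ENSGALG00000009433.6) and 626 to 711 CPM (ENSGALG00000033789.2) in the LPS libraries of the non-conditioned lineage. Under LPS the log2 fold changes of the 4 genes from t0 were 2.24 ± 0.31, 1.43 ± 0.22, 1.22 ± 0.21 and 0.73 ± 0.12 in this order. These are given with SE, and the edgeR adjusted p-values were 0.000125 to 0.00104. The same t0 libraries had served to choose the 4 genes, which favours a rise from t0. ENSGALG00000006198.6 and ENSGALG00000004465.6 stood at 52.1 to 92.8 and 30.2 to 44.1 CPM under LPS, against 114 to 152 and 59.0 to 66.4 CPM at t0. Against t0 their log2 fold changes under LPS were -0.94 ± 0.22 and -0.78 ± 0.18 (SE, edgeR adjusted p = 0.0194 and 0.0148), beside -0.96 and -0.77 under heat, and both comparisons use the same t0 libraries. LPS against t0 called 202 genes (2.55%), 27 of them (0.341%) lower.

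In the conditioned lineage LPS libraries share no library with the heat comparison. The 100 highest-ranked upward genes had a median log2 fold change of 0.14 there, with 57 of 100 above 0, and the 100 downward genes a median of -0.05, with 53 of 100 below 0. Over all genes the median was 0.02, with 53.0% above 0. There edgeR called 8 of the 100 upward genes as higher and 0 as lower, against 93 and 8 of all 7921 genes tested. Of the 100 downward genes it called 1 as higher and 1 as lower. The 4 genes called under heat had log2 fold changes of 0.43 to 1.14 there. Of these, ENSGALG00000033789.2 alone was called (0.64, edgeR adjusted p = 0.00893). The shared estimate of spread entered both the ranking and these calls. With t0 libraries 2 and 3 of that lineage omitted, which left t0 library 1 alone, the medians were 0.31 and -0.13. Then 76 of the 100 upward genes were above 0 and 62 of the 100 downward genes below 0. Over all genes the median was then 0.01, with 50.9% above 0.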

How the data were processed

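Libraries were made with the bulk MARS-seq method, which reads the 3′ ends of polyadenylated transcripts, per the labels' protocols. Per the submitters' processing notes, cutadapt, STAR, HTSeq and DESeq2 were used with the galGal5 build. Not given in the sources used here are the versions, settings, collapse of molecular identifiers, strand and the choice of genes listed. The deposited table holds raw counts per gene and, per the file headers, a block of normalized counts, here called signal: each deposited column of signal was the raw column divided by 1 constant by the authors. Counts were tested, and the signal gave only an alternative set of factors. The 10 methylation samples are not analysed here.

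Counts of all 18 RNA libraries were fitted in 1 group-means model with edgeR 4.0.16 (filterByExpr by group, TMM, quasi-likelihood test) in R 4.3.3. The filter kept 7921 of 11207 genes, with 99.5% of all counts. Adjustment was by Benjamini and Hochberg over all genes tested, with a threshold of 0.05. Standard errors are the log2 fold change over the square root of F. CPM uses TMM factors. Principal components used log2 CPM with a prior count of 2. Alternatives were DESeq2 1.42.0, voom with quality weights (limma 3.58.1), other factors, filters and sets of libraries, thinning, a replicate block and leaving out each library. The functions were checked on simulated counts. Library numbers are the replicate numbers of the titles. Libraries of a group differed beyond sampling noise (chi-square per degree of freedom 7.77 to 21.2), so none was counted as 1 library deposited again. This does not show that they came from separate chicks.

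The rule for named genes without symbols took the called genes of a direction if 5 or fewer. With more than 5 it took the 2 called genes of largest absolute log2 fold change. In a direction without calls it took the 2 genes of smallest p with no overlap and a mean of at least 10 CPM. The 21 gene lists drawn up for named pathways and cell types could not be applied. The comparison, lists and rules were chosen with earlier results of these data known.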

Additional observations from a re-analysis of the deposited data

Results flagged for a closer look

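The heated libraries of ENSGALG00000004465.6 lay on opposite sides of the t0 mean in the lineages, though heat against t0 passed the test in neither. In the non-conditioned lineage all 3 heated libraries were below the t0 mean, at 31.9 to 39.1 CPM against 59.0 to 66.4 CPM at t0. The rule that named the gene asked for no overlap in this lineage, so that this side was fixed in advance. In the conditioned lineage all 3 were above it, at 47.0, 51.6 and 56.5 CPM under heat against 38.7, 47.0 and 47.2 CPM at t0, so that the groups overlapped there. For chicks of non-conditioned parents the log2 fold change was -0.77 (edgeR adjusted p = 0.166), and for those of conditioned parents it was 0.23 (95% interval -0.16 to 0.63, edgeR adjusted p = 0.594). The difference of the responses, non-conditioned minus conditioned, was -1.01 ± 0.26 on the log2 scale (SE, edgeR adjusted p = 0.131). It did not pass over all genes, and the choice of the gene favours a negative difference. Of the 100 highest-ranked genes downwards, 67 were above 0 in the conditioned lineage, against 51.9% of all genes tested. With t0 libraries 2 and 3 of that lineage omitted, which left 1 t0 library, 53 of the 100 were above 0, against 51.1% of all genes.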

How the results depend on the processing

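The number of genes called under heat was 4 and lay between 3 and 6 when 1 of the 6 libraries was left out. It was also within 1.5 times of 4 with other factors, with no or a stricter low-count filter, in fits to the 6 or the 9 libraries, on thinned counts, and, chosen after seeing the data, with the t0 libraries numbered 2 and 3 of the conditioned lineage omitted. DESeq2 called 27 and voom 13. ENSGALG00000023818.4, ENSGALG00000011715.5 and ENSGALG00000033789.2 passed under all 17 alternatives each, with adjusted p of at most 0.0206, and ENSGALG00000009433.6 under 13 of 17, with a highest adjusted p of 0.0927. The replicate block called 6 genes, the 4 among them. Deviations of same-numbered heated and t0 libraries correlated at 0.108, 0.00603 and 0.0380 across genes, against -0.0744 to 0.0366 for libraries of different number. Not every library correlated best with its own number. With 3 libraries a group, these values do not decide whether the numbers of the titles pair the libraries. In some other groups the numbers of the titles differ from those of the file headers by other steps. The block gave 0 calls for the difference between lineages and 145 for heat against LPS. DESeq2 called 113 and 166 there. Without 1 library each, the numbers ran from 0 to 243 and from 81 to 107. The share of genes above 0 was 49.1% without a filter and 49.3% with the stricter one (49.4% to 51.5% without 1 library), and the SD of log2 fold changes, 0.48 in the fit reported, was 0.74 and 0.40 (0.52 to 0.61 without 1 library). Fewer or more genes of low level enter with the filter, and the cause of the other shifts was not tested. The median log2 fold change lay between -0.01 and 0.01 in the alternatives run for it, each of which scales the libraries to a common centre. In the lowest tertile of genes by level, 25.3% of intervals lay inside a 2-fold change, and the part of depth in this was not tested.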

Other observations

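Among the genes not tested for low counts, 11 had at least 3 counts in every t0 library of the non-conditioned lineage and 0 in every heated library. Their t0 counts summed to between 12 and 22 over the 3 libraries, and the heated libraries held 5332392 counts in all against 12239009 at t0. Genes with at least 3 counts in every heated library and 0 in every t0 library numbered 0, tested or not.

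ENSGALG00000032940.2 and ENSGALG00000035928.2, chosen after their values were seen, ranged widely within nearly every group. ENSGALG00000032940.2 stood at 14.7 to 3183 CPM in heated libraries of the non-conditioned lineage and at 10.1 to 1012 CPM in those of the conditioned lineage. Under LPS it stood at 14.9 to 91.2 CPM in the non-conditioned and 2.62 to 1047 CPM in the conditioned lineage. At t0 it stood at 3.95 to 15.8 CPM in the non-conditioned and 66.6 to 871 CPM in the conditioned lineage. The levels of both genes moved together across the 18 libraries (Spearman rho 0.96), which differ in group, depth and lineage.

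ENSGALG00000041889.2 was present in some libraries and nearly absent from others of the same group. It held 1244.5 CPM in t0 library 2 of the non-conditioned lineage and 0 in the other 2 t0 and all 3 heated libraries of that lineage. In the conditioned lineage it stood at 890, 658 and 0.422 CPM under heat and at 0, 4.35 and 141 CPM at t0. In the 6 LPS libraries the highest value was 0.521 CPM.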
